A study of Mus musculus with 6 samples.

Results

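The ErbB receptors are a family of 4 receptor tyrosine kinases, encoded by Egfr, Erbb2, Erbb3 and Erbb4, and the EGF-like ligands are the growth factors that bind them. The 10 genes described here are these receptors and the ligand genes Areg, Ereg, Hbegf, Tgfa, Btc and Nrg1, chosen by name. A probe belonged to a gene when the RefSeq accession given for it on the array carried that gene's symbol, which gave 12 of the 55681 gene probes. Of the 10 genes, 9 passed the filter on dim probes and stood among the 22502 genes or transcripts tested. Erbb4 did not pass, because its only probe was not well above background on any array (0 of 6 in the channels of either genotype).

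Ligands are made as membrane-anchored precursors and are cut free by ADAM proteases. Binding joins the receptors into pairs that signal through the Ras-ERK and PI3K-AKT pathways. ErbB2 binds no known ligand and serves as the partner of the other receptors, and ErbB3 has little kinase activity of its own. In the mammary gland amphiregulin, the product of Areg, relays estrogen signals during ductal growth. ErbB2 and EGFR are known as drivers of breast tumors.

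RNA was compared between RANK-/- and RANK+/+ tumor cells. RANK is a receptor of the tumor necrosis factor family, encoded by Tnfrsf11a. All cells came from mammary carcinomas of MMTV-PyMT mice, in which the mouse mammary tumor virus promoter drives the polyomavirus middle T oncogene in mammary epithelium. Late carcinoma cells of either genotype were grown again as orthotopic transplants in syngeneic C57BL/6 hosts, so the deletion lay in the transplanted cells and not in the stroma that the host supplied. The transplants were dissociated, and living cells without the leukocyte protein CD45 were sorted. RNA of both genotypes was hybridized together, 1 genotype per dye, in 3 pairs with 2 technical arrays each (A and B), 6 arrays in all. The RANK-/- RNA carried Cy5 in pair 1 and Cy3 in pairs 2 and 3, so a dye effect and pair 1 cannot be told apart. The labels do not state that the 3 RNAs of a genotype came from separate tumors, and the p-values measure the spread between these pairs, which may be technical in part. The hosts were young adult females, and the age of the donor mice is not given in the sources used here.

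The deleted gene went against the labels. The Tnfrsf11a probe read higher in the channel labelled RANK-/- in all 3 pairs, by log2 ratios of 2.03, 1.15 and 1.76 (mean 1.65 ± 0.45, SD, n = 3 pairs). Which part of the gene was deleted is not given in the sources used here, so it is not known whether this probe lies within it. Every direction below rests on the labels, and RANK-/- and RANK+/+ stand for the RNAs labelled so. On each array, and for each genotype, between 51.9% and 58.8% of gene probes stood well above background. The luminal keratin genes Krt8 and Krt18 and the epithelial gene Epcam were above background on every array in both channels. So were the fibroblast marker Col1a1 and the endothelial marker Pecam1. Ptprc, which encodes CD45, was above background on 5 of 6 arrays in the RANK-/- channel and on 4 of 6 in the RANK+/+ channel.

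Promoter windows of the mouse assembly GRCm38.p6 were read from RefSeq for 6 of the 10 genes (Egfr, Erbb2, Erbb4, Areg, Tgfa and Btc). Areg and Btc are shown because both genes lie on chromosome 5, and both read low in pair 2, as did their neighbor, the ligand gene Epgn (below). Each line gives the 250 bases before the transcript start, 5′ to 3′ on the strand of the gene, at chr5:91139349-91139598 (+ strand) for Areg and at chr5:91402995-91403244 (- strand) for Btc. Capitals mark matches to the motifs searched.
Areg: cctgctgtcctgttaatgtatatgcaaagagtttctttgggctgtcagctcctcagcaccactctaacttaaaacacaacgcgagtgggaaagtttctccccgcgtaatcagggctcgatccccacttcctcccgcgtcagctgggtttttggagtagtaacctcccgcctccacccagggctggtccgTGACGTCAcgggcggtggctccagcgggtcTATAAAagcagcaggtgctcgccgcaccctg
Btc: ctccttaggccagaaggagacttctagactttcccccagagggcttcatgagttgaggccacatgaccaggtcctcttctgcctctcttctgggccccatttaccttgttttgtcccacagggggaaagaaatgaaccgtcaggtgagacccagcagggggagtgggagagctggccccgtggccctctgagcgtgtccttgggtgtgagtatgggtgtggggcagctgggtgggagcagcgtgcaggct

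The motifs were searched on both strands: the cAMP response element CRE (TGACGTCA), the AP-1 site (TGANTCA), the TATA box (TATAAA) and the NF-kB site. The Areg window held a CRE starting 61 bases and a TATA box starting 31 bases before the transcript start. The other 5 windows, Btc included, held no match to any of them. Of 32851 mouse promoter windows, 1.546% held the CRE, 6.749% the AP-1 site, 12.37% the TATA box and 7.251% the NF-kB site. These are matches of letters and were not tested as binding sites.

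Across the family no gene was called different between the genotypes by either test. With limma, 0 of the 9 genes passed an adjusted p of 0.05, as did 0% of all genes tested, and each of the 9 had an adjusted p of 0.999. At an unadjusted p under 0.05 limma gave 0 of the 9 and 647 of the 22502. The rank product test, which asks whether a gene ranks high or low in every pair, called 0 of the 9 genes and 22 of all genes (0.0978%). Neither test called Tnfrsf11a, whose probe read higher in RANK-/- in every pair (limma adjusted p of 0.999), so a change of that size could be missed. Over all genes tested, the ratios of pairs 1 and 2 had a Pearson correlation of -0.28, those of pairs 1 and 3 of 0.18, and those of pairs 2 and 3 of -0.08. The ratios of the members by array, in the plot of ratios, show that the pairs differed among themselves far more than the technical arrays of each pair did, except for Erbb3.

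**Figure D1:**
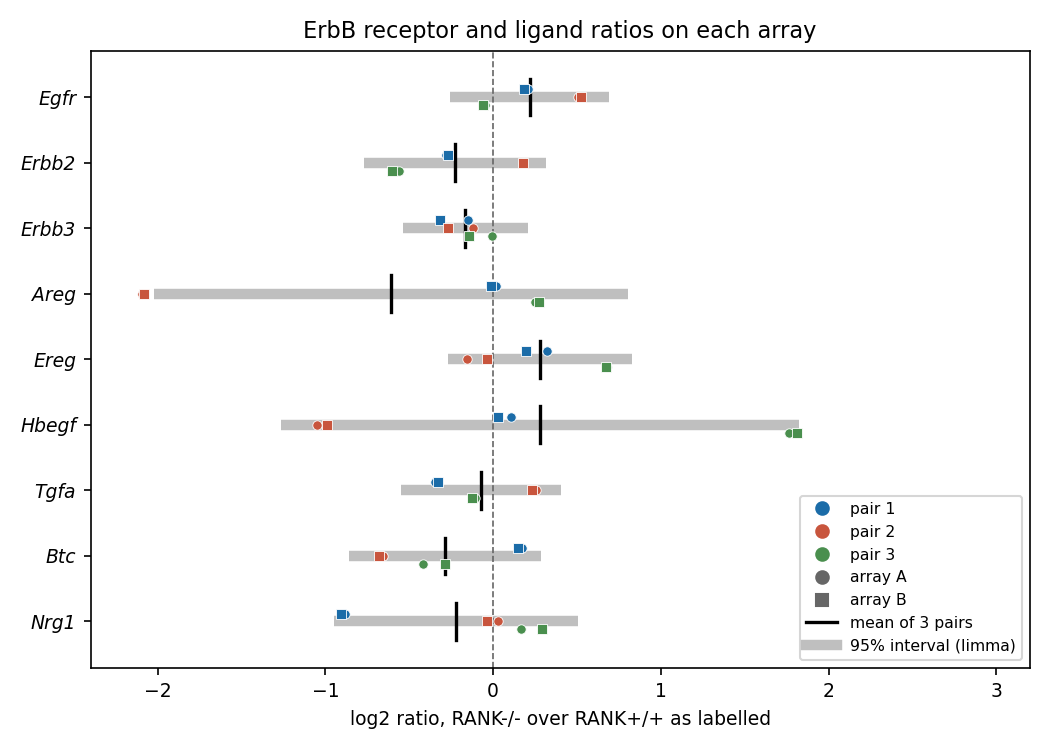
The log2 ratio of RANK-/- over RANK+/+ (x axis) of each tested receptor and ligand gene on each of the 6 arrays. Colors mark the 3 pairs, circles array A, squares array B, black ticks the mean over pairs and grey bars its 95% interval from limma. All 9 intervals span 0, and Areg and Hbegf have the widest.

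Among the receptors, Egfr had log2 intensities of 11.39, 12.69 and 11.40 in the RANK-/- RNAs of pairs 1, 2 and 3, and of 11.19, 12.18 and 11.45 in the RANK+/+ RNAs. The genotypes overlapped, and both RNAs of pair 2 read higher than the other 4. The 2 channels of an array share its spots, so a level common to a pair cannot be told apart from a property of its arrays. Its log2 ratio was 0.20, 0.52 and -0.06 in pairs 1, 2 and 3, with a mean of 0.22 (95% interval -0.25 to 0.69), which spans a fold of 0.838 to 1.62. The mean was 0.07 without pair 2, and was -0.022 when the arrays were centred on their medians in place of loess.

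Egfr was the only one of these genes with more than 1 probe. The brightest, A_52_P106259, stood for the gene and was printed at 10 spots per array. The other probes, A_55_P1956862 and A_55_P1956863, were assigned to a different RefSeq transcript of Egfr. Their log2 ratios were 0.42, -0.17 and 0.14 for the first and 0.32, 0.02 and 0.22 for the second in pairs 1, 2 and 3. The probes therefore disagreed: the brightest gave its highest ratio in pair 2, where the others gave their lowest, and its only negative ratio in pair 3, where the others were positive. Averaged over the 3 probes, Egfr was higher in RANK-/- in every pair, which the brightest probe alone did not show.

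Erbb2 had log2 intensities of 9.43, 10.33 and 9.86 in the RANK-/- RNAs and of 9.71, 10.15 and 10.44 in the RANK+/+ RNAs. The lowest and the highest of the RNAs were 1 of each genotype, and the genotypes overlapped. Its log2 ratios were -0.28, 0.18 and -0.58, with a mean of -0.23 (95% interval -0.77 to 0.32). The mean was -0.43 without pair 2 and -0.049 without pair 3. This probe, like the Egfr probe, was printed at 10 spots, and the 2 technical arrays of each pair differed by a technical SD of 0.019 against an SD of 0.38 between pairs.

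Erbb3 was the only one of the 9 genes with the same sign in all 3 pairs. Its log2 intensities were 6.88, 6.91 and 7.09 in the RANK-/- RNAs and 7.12, 7.10 and 7.16 in the RANK+/+ RNAs. The groups did not overlap, by a narrow margin. It was 1 gene of 9 lower in every pair, against 9.65% of all genes tested (9.93% were higher in every pair), and 1 of 9 without overlap, against 7.48% of all genes. Both shares are near what the array as a whole gave. The mean log2 ratio was -0.17 (95% interval -0.54 to 0.20), a fold of 0.688 to 1.15. The mean was -0.40 with Agilent's processed signals and -0.093 on arrays A alone.

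For Erbb3 the technical arrays differed in the same direction in every pair. Array A gave log2 ratios of -0.15, -0.12 and -0.01 in the 3 pairs, and array B gave -0.32, -0.27 and -0.14, so B read lower than A in each. The technical SD of 0.105 was larger than the SD of 0.082 between pairs. The ratio was below 0 in all 3 pairs under each of the 12 settings that allowed the count, but the groups overlapped on arrays A alone, on arrays B alone, with a normexp offset of 0 and with Agilent's processed signals.

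For Erbb4, which encodes a neuregulin receptor, the log2 intensity was 5.81 to 6.05 in the RANK-/- RNAs and 5.87 to 5.97 in the RANK+/+ RNAs. No fold is given, since both groups were not well above background.

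**Figure D2:**
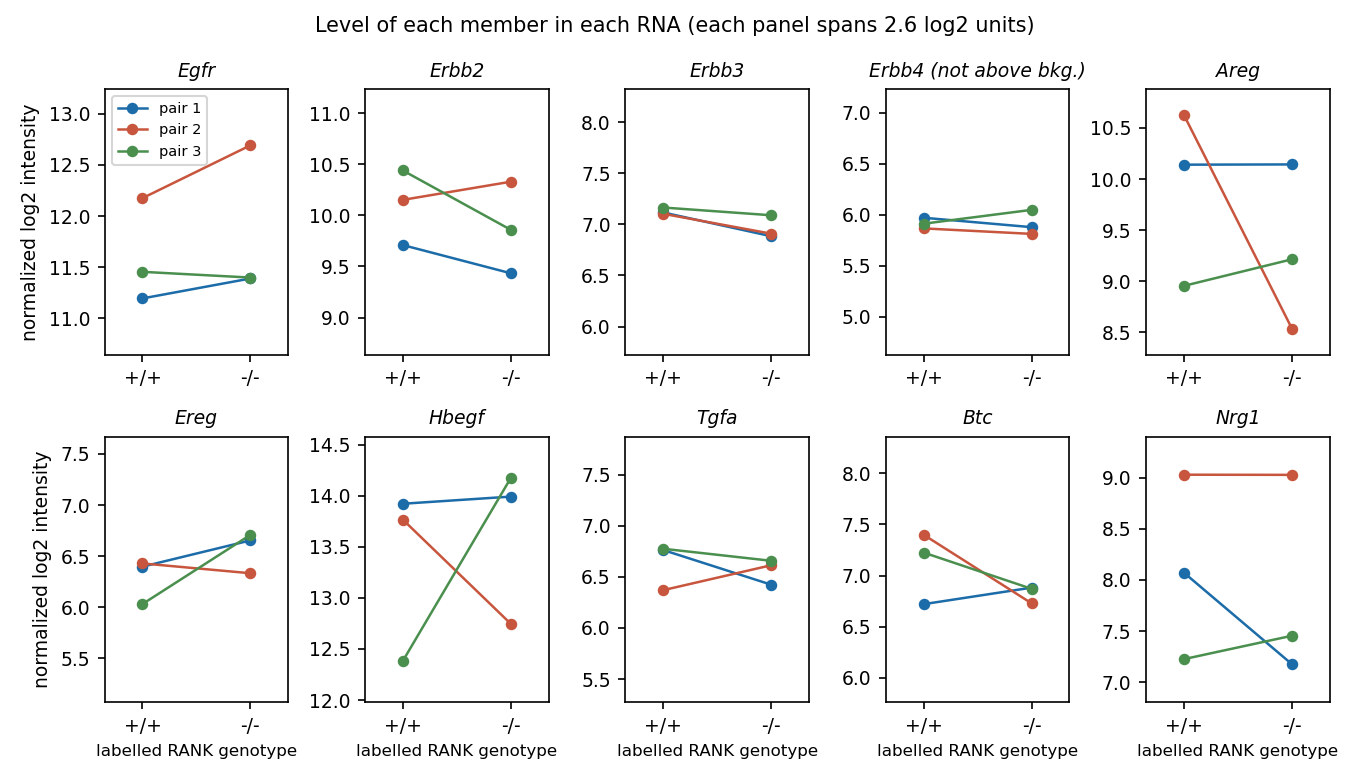
Normalized log2 intensity (y axis) of each receptor and ligand gene in each RNA, RANK+/+ on the left and RANK-/- on the right of each panel; a line joins the RNAs of a pair. Every panel spans the same range, so slopes can be compared, and levels of different genes cannot. Areg in pair 2 and Hbegf in pairs 2 and 3 have the steepest lines.

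Among the ligands, Areg had log2 intensities of 10.14, 8.54 and 9.22 in the RANK-/- RNAs and of 10.14, 10.63 and 8.96 in the RANK+/+ RNAs. Pair 2 held both the lowest and the highest of these values, and the RNAs of pair 1 were alike. The log2 ratio was 0.0024 in pair 1, -2.09 in pair 2 (4.25-fold lower in RANK-/-) and 0.26 in pair 3. Arrays A and B gave -2.10 and -2.08 in pair 2, so the fall was the same on both technical arrays. The mean was -0.61 (95% interval -2.02 to 0.81), and without pair 2 it was 0.13.

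Hbegf encodes heparin-binding EGF-like growth factor. Its log2 intensities were 13.99, 12.75 and 14.17 in the RANK-/- RNAs and 13.92, 13.77 and 12.38 in the RANK+/+ RNAs. The genotypes overlapped, with the lowest value in a RANK+/+ RNA and the highest in a RANK-/- RNA, both of pair 3. Hbegf had a log2 ratio of 0.07 in pair 1, -1.02 in pair 2 and 1.79 in pair 3 (3.46-fold higher in RANK-/-). The pairs thus went opposite ways by more than 2-fold each, while the technical SD was 0.043. The mean was 0.28 (95% interval -1.27 to 1.83), was -0.47 without pair 3, and was -0.026 with median centring in place of loess.

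A change of 2-fold or more set Areg and Hbegf apart from the other 7 genes. This limit, and the pairs and directions counted below, were chosen after the values were seen. In some pair, 2 of the 6 ligands and 0 of the 3 receptors reached it, against 14.9% of all genes tested. In pair 2, 2 of the 9 genes were lower by that much, against 2.37% of all genes, and in pair 3, 1 of the 9 was higher by that much, against 4.91%. In pair 1, 0 of the 9 reached it in either direction, against 6.5%. In pair 2 only 0.307% of all genes tested had a lower ratio than Areg. In pair 3 only 1.07% of all genes had a higher ratio than Hbegf.

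Ereg encodes epiregulin. Its log2 intensities were 6.65, 6.33 and 6.71 in the RANK-/- RNAs and 6.40, 6.43 and 6.03 in the RANK+/+ RNAs. The probe was dim: it was well above background on all 6 arrays in the RANK-/- channel and on 4 in the RANK+/+ channel, the exceptions being both arrays of pair 3. The log2 ratio was 0.26, -0.10 and 0.68 (mean 0.28, 95% interval -0.27 to 0.83). The value of pair 3 was thus taken against a RANK+/+ reading not well above background, and the mean was 0.08 without that pair. The size depended on the background correction, and the mean was 0.69 with a normexp offset of 0 and 1.30 with Agilent's processed signals, with no call under either.

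Btc encodes betacellulin, which binds EGFR and ErbB4. Its log2 intensities were 6.88, 6.73 and 6.87 in the RANK-/- RNAs and 6.72, 7.40 and 7.22 in the RANK+/+ RNAs. The RANK-/- values lay within a narrow range, and the RANK+/+ values reached both below and above it. Btc had log2 ratios of 0.16, -0.67 and -0.35 (mean -0.29, 95% interval -0.86 to 0.29). The mean was -0.51 without pair 1, -0.096 without pair 2 and -0.55 with Agilent's processed signals.

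Tgfa encodes transforming growth factor alpha, a ligand of EGFR. Its log2 intensities were 6.42, 6.61 and 6.66 in the RANK-/- RNAs and 6.76, 6.37 and 6.77 in the RANK+/+ RNAs. The genotypes overlapped, and the log2 ratio of -0.34, 0.24 and -0.12 (mean -0.07, 95% interval -0.55 to 0.41) had the mean nearest to 0 among the 9. Without pair 1 the mean was 0.063.

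Nrg1 encodes neuregulin 1, a ligand of ErbB3 and ErbB4. Its log2 intensities were 7.18, 9.03 and 7.45 in the RANK-/- RNAs and 8.07, 9.03 and 7.23 in the RANK+/+ RNAs. Like Egfr, it read highest in both RNAs of pair 2. The log2 ratio was -0.90 in pair 1, -0.0016 in pair 2 and 0.23 in pair 3 (mean -0.22, 95% interval -0.95 to 0.50), and the mean was 0.11 without pair 1.

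The ligands on chromosome 5 were looked at together after their values had been seen, and no test was made of them. In pair 2 all 4 had a ratio below 0, namely Areg (-2.09), Epgn (-1.03), Btc (-0.67) and Ereg (-0.10). The Ereg value was an ordinary one, with 38.6% of all genes tested lower. In pair 1 all 4 were above 0, by 0.26 or less, and in pair 3 the ratio was above 0 for 3 of them and -0.35 for Btc. Of the 6 member ligands, 5 had a ratio below 0 in pair 2, 1 of them Nrg1 at -0.0016, against 51.7% of all genes tested.

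The spread between pairs differed from gene to gene. Hbegf (SD 1.42) and Areg (SD 1.29) varied more between pairs than 97.9% and 97.1% of all genes tested, whose median SD was 0.33. Nrg1 (SD 0.59) varied more than 78.2% of them. The receptors had SDs of 0.082 to 0.38, with Erbb3 below all but 7.33% of genes. The median SD was 0.51 over the 6 ligands and 0.29 over the 3 receptors. These SDs were not adjusted for signal level. Erbb3, Ereg, Tgfa and Btc were brighter than only 25.2%, 8.31%, 14.6% and 23.9% of genes tested. The technical SD of the 9 genes was at most 0.105, and apart from Erbb3 the SD between pairs was at least 5.53 times the technical SD. The technical SD is that of single arrays, and the SD between pairs that of means over arrays A and B.

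**Figure D3:**
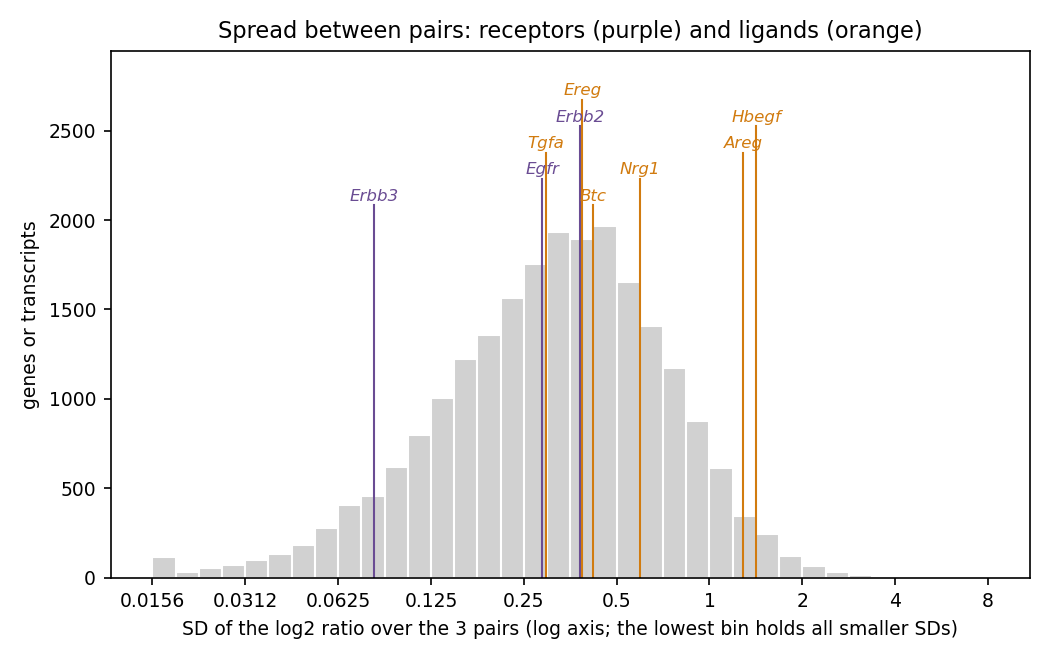
Histogram of the SD of the log2 ratio over the 3 pairs (x axis, log scale) for the 22502 genes or transcripts tested; the y axis counts genes. Purple lines mark receptors and orange lines ligands; their heights carry no value. Hbegf (1.42) and Areg (1.29) lie in the upper tail and Erbb3 (0.082) in the lower part.

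The rest of the pathway was described by lists of genes. Over 5 lists, 75 genes were tested, of which limma and the rank product test called 0. In all 3 pairs 8 of them were higher (10.67%) and 4 were lower (5.33%), against 9.93% and 9.65% of all genes. The other EGF-like ligands (4 of 5 tested) had no gene of the same sign in all pairs. Egf, which encodes epidermal growth factor, had the largest mean among them, with log2 ratios of 1.62, -0.05 and 2.59. Of the 9 ligand-processing genes, Adam12 alone had 1 sign, at a mean of 0.11. Adam8, a membrane protease gene, had the largest mean of that list (-0.89), from ratios of -1.98, -0.997 and 0.31.

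Of the 12 receptor partners and inhibitors, Lrig2 was higher and Lrig3 and Muc4 were lower in every pair. Muc4, which encodes a membrane mucin that binds ErbB2, had log2 ratios of -3.13, -0.70 and -0.30 (mean -1.38 ± 1.53, SD). Of the 31 adaptor and kinase genes, those higher in every pair included Araf, Stat3 and Stat5a, and 0 were lower in every pair. Stat3, a transcription factor gene, had the largest of these means, with ratios of 0.95, 0.35 and 1.23 (mean 0.84 ± 0.45). Of the 19 feedback and target genes of ERK, Spry4 and Ier3 were higher and Spred3 and Myc were lower in every pair. Ier3, an immediate early gene, had ratios of 0.65, 0.76 and 0.85 (mean 0.75 ± 0.10). All of these had an adjusted p of 0.999 by limma.

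The medians of markers of cell state and cell type differed from pair to pair. Genes known to be induced when tissue is dissociated (15 of 16 tested) had median log2 ratios of 0.53, -0.41 and 0.74 in pairs 1, 2 and 3, against medians of 0.015, -0.012 and 0.00094 over all genes. Of the 15 dissociation genes tested, 3 (Jun, Ier3 and Dnajb1) were higher in all 3 pairs and 0 were lower. Over all genes tested, 9.93% were higher and 9.65% lower in every pair. Dnajb1, a chaperone gene, had a mean of 0.58 ± 0.33. Fos had ratios of 0.03, -0.45 and -0.46 (mean -0.29). Ier2 (-0.0020) and Hspb1 (-0.029) also had means below 0, and the rest of the list had means above 0. Fos and Egr1 were highest in pair 1 and lowest in pair 3. The median of the dissociation list was lowest in pair 2 and highest in pair 3, as were the Areg and Hbegf ratios. By their medians, most of the lists plotted below share that order, and 3 pair ratios do not rank likeness. Luminal epithelium markers, all 12 tested, had medians of 0.18, -0.51 and 0.50, with the same order of pairs. Of the single genes, Krt8, Krt18, Krt19, Elf5 and Cldn4 had that order. Krt7 and Spint1 were highest in pair 2. Epcam, Cdh1, Cldn3 and Kit were highest in pair 1, and Cldn7 was lowest in pair 1. The log2 of the summed intensity of the luminal markers was 17.6 to 19.0 in the RANK-/- RNAs and 17.7 to 18.4 in the RANK+/+ RNAs. For the dissociation genes it was 19.0 to 19.5 and 18.8 to 19.2.

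Fibroblast markers, all 12 tested, had medians of 0.19, 0.30 and 1.69, and 4 of them (Col1a1, Col1a2, Pdgfra and Col5a1) were higher in every pair. The log2 of their summed intensity was 17.2 to 17.9 in the RANK-/- RNAs and 15.9 to 17.3 in the RANK+/+ RNAs. The 10 basal markers had medians of 0.17, -0.06 and 0.03, and the 9 endothelial markers 0.02, -0.10 and 0.55. Oxtr among the former and Cldn5 among the latter were the only ones of 1 sign, both higher. The log2 of the summed intensity of the basal markers was 15.0 to 15.3 in the RANK-/- RNAs and 15.4 to 15.8 in the RANK+/+ RNAs, so these did not overlap. Of single genes tested, 7.48% did not overlap, a share that does not apply to sums. The sums of every other list overlapped between the genotypes. The brightest genes weigh most in such a sum, and the list's medians by pair had no common sign. The basal keratin genes Krt5, Krt14 and Krt17 had means of -1.07, -0.71 and -1.23, none of 1 sign in all pairs. The other basal markers went both ways. Oxtr (0.89), Acta2 (0.30), Mylk (0.17), Trp63 (0.14) and Tagln (0.13) had means above 0. Myh11 and Cnn1 (both -0.32) had means below 0. In bulk RNA, fewer cells of a type and less RNA per cell cannot be told apart. The part of any of these lists in the ratios of the receptors and ligands was not tested.

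**Figure D4:**
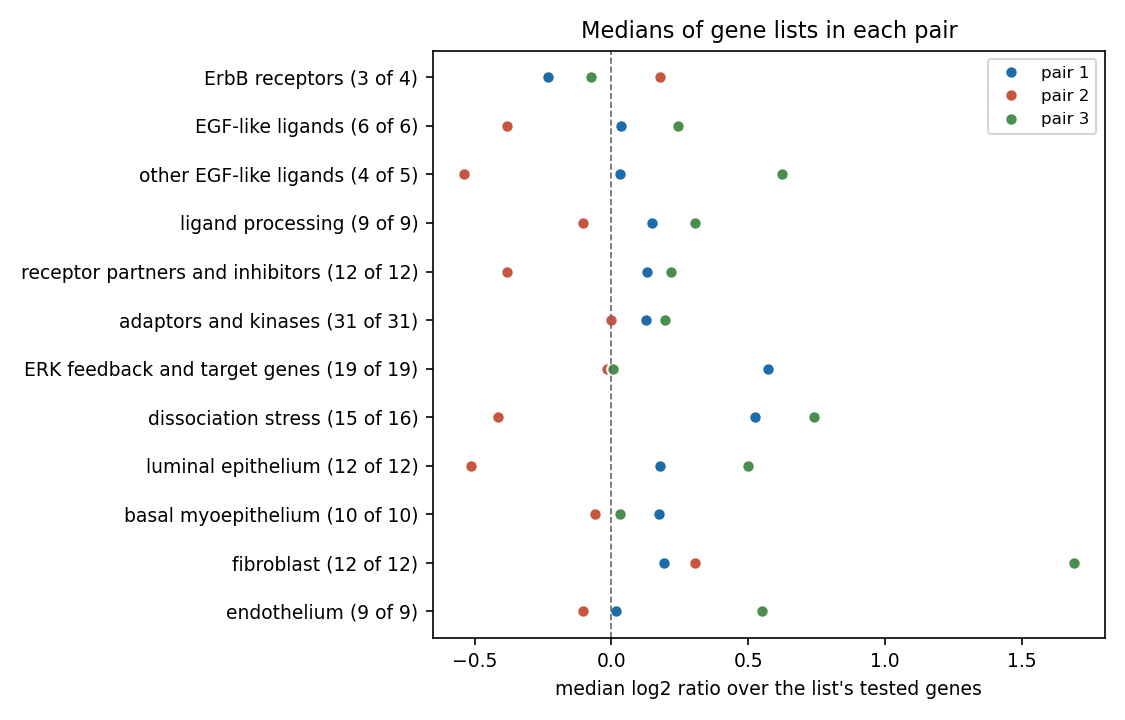
Median log2 ratio of RANK-/- over RANK+/+ (x axis) of each gene list (y axis, with the number of its genes tested of the number listed) in each of the 3 pairs, marked by color. Of the lists plotted, all but the ErbB receptors, the ERK genes and the basal and fibroblast markers have their lowest median in pair 2 and their highest in pair 3.

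Of the markers of blood and fat cells, not all were above background. Among 11 leukocyte and lymphocyte genes 7 were tested, Cd3e, Cd4 and Nkg7 among them, and the probes of the B cell genes Cd79a and Ms4a1 were above background on 0 arrays. The 7 had medians of -0.39, 0.10 and 0.15. In pair 1 Ptprc was at -0.93, Laptm5 at -0.98, Coro1a at -0.92 and Cd52 at -0.39. Nkg7 was at -0.16 in that pair, and Cd3e (0.02) and Cd4 (0.11) were above 0. Among 6 adipocyte genes only Fabp4 was tested. The macrophage markers (8 of 9 tested) had medians of -0.27, 0.25 and 0.16. The neutrophil markers (3 of 6 tested) had medians of -3.99, -0.03 and -0.11, with S100a8 at -3.99, S100a9 at -4.12 and Csf3r at 0.42 in pair 1. The sort was set to remove leukocytes, and which cells made these transcripts was not tested. The part of these markers in the ratios of the receptors and ligands was not tested either.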

How the data were processed

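RNA of sorted CD45- cells was measured on SurePrint G3 Mouse 2-color arrays. The authors extracted spots with Agilent Feature Extraction (version 10.7.3.1). The deposited scanner tables give median and background intensity per spot, not normalized; processed intensity values and the deposited log2 series table were used as alternatives only. The direction of the series table is not stated; its columns followed RANK-/- over RANK+/+ (r of 0.950 to 0.962 with the scanner ratios). The deposited flags (other columns) mark spots well above background.

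Median signals were corrected with normexp (offset 50), and control and outlier spots were left out. Intensity loess, then Aquantile, followed (limma 3.58.1, R 4.3.3, data.table version 1.17.8). The study's methods also name a spatial loess and dye swaps; the former was an alternative, and the labels give arrays A and B of a pair the same dyes. The arrays lay on 1 slide. Spots of a probe and arrays A and B were averaged (n = 3 pairs). A probe entered if, in either genotype, its channel stood well above background on arrays A and B of 2 or more pairs; 30231 (54.3%) did, and the brightest probe stood for a gene. Symbols came from RefSeq (GRCm38.p6) for 28026 of 55681 gene probes. limma (lmFit, eBayes, intercept only, two-sided, Benjamini-Hochberg, threshold 0.05) and a rank product test (500 seeded draws) ran over all 22502 genes or transcripts. A run on simulated, independent pair ratios checked the estimated means only and set no requirement on the calls. With 3 pairs an exact two-sided sign-flip test gives at least p = 0.25. The number of arrays limits the precision. Members and lists were chosen with earlier results of these data known. Named genes were the members, Tnfrsf11a and, per list, genes of 1 sign in all pairs with a mean log2 ratio of at least 0.5 in size (at most 4 per direction, or else the gene of largest mean). Shorter counts of 1-sign genes, and other genes of the lists, were named after their values were seen. One listed gene is not reported here.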

Additional observations from a re-analysis of the deposited data

How the results depend on the processing

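No member was called under any of the 17 alternatives, by limma or, where it was run, by rank product. The 3 pairs, and signal near background for Erbb3, Ereg, Tgfa and Btc, limit what could be seen. Genes of all kinds called by limma numbered 13 with the 6 arrays fitted as technical replicates within a pair (pair as a random replicate block) and 0 otherwise; the RNAs of a pair did not deviate together (correlations -0.0335, -0.218 and -0.0412). Without the block (3 against 3 RNAs) the means are the same by construction. A dye term turned no member, but this fit cannot separate dye from pair 1, the only pair with RANK-/- in Cy5. Rank product called 3 genes without pair 1, 22 without pair 2 and 2 without pair 3, against 22 with all pairs and 36 without the filter on dim probes. Members of 1 sign in all pairs numbered 3 with median centring (Erbb2, Erbb3 and Nrg1, all lower) and 2 with the mean over probes (Egfr and Erbb3). Members not overlapping numbered 0 with a normexp offset of 0, with processed signals, and on arrays A or B alone. Median centring turned the means of Egfr (-0.022) and Hbegf (-0.026). Leaving out 1 pair, the mean ran from -1.04 to 0.13 for Areg, -0.47 to 0.93 for Hbegf, -0.45 to 0.11 for Nrg1, -0.23 to 0.063 for Tgfa, 0.07 to 0.36 for Egfr, -0.43 to -0.049 for Erbb2, -0.21 to -0.14 for Erbb3, 0.08 to 0.47 for Ereg and -0.51 to -0.096 for Btc. The cause was not tested for any of these. Rank product was not run on the block, dye and unpaired fits. Ereg gave no value with the strictest filter.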
